A study of Rattus norvegicus with 8 samples.

Results

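The 8 genes described here encode proteins of the red cell membrane skeleton: Slc4a1, Epb42, Ank1, Sptb, Epb41, Add2, Dmtn and Tmod1. They were taken by symbol, keeping every probe set that the platform annotation assigns to exactly 1 of these symbols, which gave 16 probe sets of the 31042 tested. Slc4a1, Epb41, Dmtn and Tmod1 have 2 probe sets each, Ank1 and Sptb have 3 each, and Epb42 and Add2 have 1. The blood came from male Wistar rats, bought at 7 weeks of age and kept on normal chow for acclimation. In the high-fat group the animals then ate a high-fat diet (Quick fat) for 8 weeks; the mulberry group ate the same food containing 1% mulberry leaf powder over the same time. Each diet was given to 10 rats, and 4 arrays per diet, called biological replicates in the labels, were available. The labels do not say whether an array holds 1 animal or a pool, so every test measures the spread between these samples. All animals of both groups were on the high-fat food, and the normal-diet group was not analysed here.

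Under the lipid bilayer of the red cell lies a net of spectrin tetramers that gives the cell its shape and its resilience in narrow vessels. Band 3, the anion exchanger encoded by Slc4a1, anchors this net through ankyrin-1 (Ank1), with protein 4.2 (Epb42) bound at the same site. The spectrin ends, whose beta chain is encoded by Sptb, meet on short actin filaments at junctions that hold protein 4.1 (Epb41), beta-adducin (Add2), dematin (Dmtn) and the actin-capping protein tropomodulin-1 (Tmod1). Mature mammalian red cells have no nucleus and little RNA, and in blood many such transcripts are known from reticulocytes, the youngest circulating red cells. Other blood cells may hold some of them as well. In a bulk sample, fewer reticulocytes and less RNA per reticulocyte cannot be told apart.

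Erythroid genes are known targets of GATA1, which binds GATA motifs, and of KLF1, which binds CACCC boxes, so the start regions of the members were read for these letters. RefSeq (GRCr8) promoter windows, from 250 bases before the gene's start to 50 after it, matched 5 of the 8 members (Epb42, Epb41, Sptb, Add2 and Tmod1). The GATA letters were searched on both strands as AGATAA, with a different last letter as AGATAG, with a different leading letter as TGATAA or, ending differently, as TGATAG, and 30.3% of all 33469 windows hold at least 1 of these. They were found in 3 of the 5 windows, and these 3 are printed beside that of Tmod1, which has none. Capitals mark the GATA letters or their reverse complement.
Add2, chr4:120054628-120054927, plus strand: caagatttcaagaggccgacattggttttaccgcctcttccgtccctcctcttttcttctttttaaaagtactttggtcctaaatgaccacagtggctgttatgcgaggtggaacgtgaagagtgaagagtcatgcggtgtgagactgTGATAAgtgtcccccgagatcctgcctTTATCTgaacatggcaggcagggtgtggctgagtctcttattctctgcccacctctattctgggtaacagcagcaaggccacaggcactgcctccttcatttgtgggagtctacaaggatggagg
Epb42, chr3:128451634-128451933, minus strand: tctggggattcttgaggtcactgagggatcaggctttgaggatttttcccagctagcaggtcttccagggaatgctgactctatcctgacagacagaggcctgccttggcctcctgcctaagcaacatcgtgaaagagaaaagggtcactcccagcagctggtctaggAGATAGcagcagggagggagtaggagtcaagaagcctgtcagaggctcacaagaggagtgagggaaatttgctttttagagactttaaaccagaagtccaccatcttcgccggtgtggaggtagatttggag
Sptb, chr6:101170229-101170528, minus strand: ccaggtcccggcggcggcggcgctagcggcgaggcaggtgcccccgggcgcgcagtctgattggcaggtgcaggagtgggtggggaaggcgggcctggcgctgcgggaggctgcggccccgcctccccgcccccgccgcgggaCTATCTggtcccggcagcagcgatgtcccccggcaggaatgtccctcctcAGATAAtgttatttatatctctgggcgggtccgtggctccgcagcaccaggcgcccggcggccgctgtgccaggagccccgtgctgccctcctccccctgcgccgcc
Tmod1, chr5:65111812-65112111, plus strand: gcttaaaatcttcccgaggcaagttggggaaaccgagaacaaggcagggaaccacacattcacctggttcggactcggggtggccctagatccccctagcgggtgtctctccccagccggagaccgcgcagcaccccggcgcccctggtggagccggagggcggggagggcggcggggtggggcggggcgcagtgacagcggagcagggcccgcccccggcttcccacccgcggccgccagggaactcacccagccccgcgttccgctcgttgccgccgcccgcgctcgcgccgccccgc
The Add2 window holds TGATAA from position -102 and TTATCT from -75, counted from the start on the gene's strand. The Epb42 window holds AGATAG from -82, and the Sptb window CTATCT from -107 and AGATAA from -57. For CACCC boxes, CCACACCC and the looser CCNCNCCC were searched on both strands (the first is a special case of the second). A match was present in 4 of the 5 windows, all but that of Epb42, and in 46.3% of all windows. Only the Add2 window holds CCACACCC. The other windows match CCNCNCCC alone, which does not require the letters CACCC. GC content was 70.7% for Epb41, 74.3% for Sptb and 73.7% for Tmod1, against 50.0% for Add2, 51.7% for Epb42 and a median of 51.7% over all windows. These matches describe the printed window only.

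The values are log2 probe set summaries between 5.17 and 15.26. Their spread between arrays is extremely narrow, with a median SD over the 8 arrays of 5.31e-06, and the scale between arrays is compressed to an unknown degree. Values on an array are therefore given as deviations from the probe set's own mean in SD units, where 1 unit is its SD among all 8, and a difference is the mulberry mean minus the high-fat mean in those units. With 4 arrays against 4 such a difference cannot exceed 1.87. Defining transcripts of red cells were present in this blood: the Hbb probe set, for the beta chain of haemoglobin, had a level of 15.09 near the top of the scale, and Alas2, the erythroid enzyme that starts heme synthesis, 13.85. Both had almost the same value on every array, with SDs of 5.18e-09 and 1.62e-06.

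No member probe set differed between the diets beyond the spread of the arrays. In limma, 0 of the 16 passed after Benjamini-Hochberg adjustment over all 31042 probe sets (all adjusted p = 1.0), as did 0.0% of all probe sets. At an unadjusted p under 0.05 the members also numbered 0, against 4.36% of all probe sets. The smallest two-sided exact permutation p of a member was 0.0857, where 4 against 4 allow 0.0286. The arrays of the 2 diets overlapped for every member, and 2.52% of all probe sets had diets that did not overlap. Means were higher with mulberry for 12 members and lower for 4, beside 52.7% higher and 47.3% lower over all probe sets, and the median difference was 0.43 SD units against 0.06 over all. The split moved with that of all probe sets under other scalings: after quantile normalization 7 members were higher, 5 lower and 4 at 0 (28.1% higher over all), and after median centring of the arrays 15 were higher (96.9% over all).

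**Figure D1:**
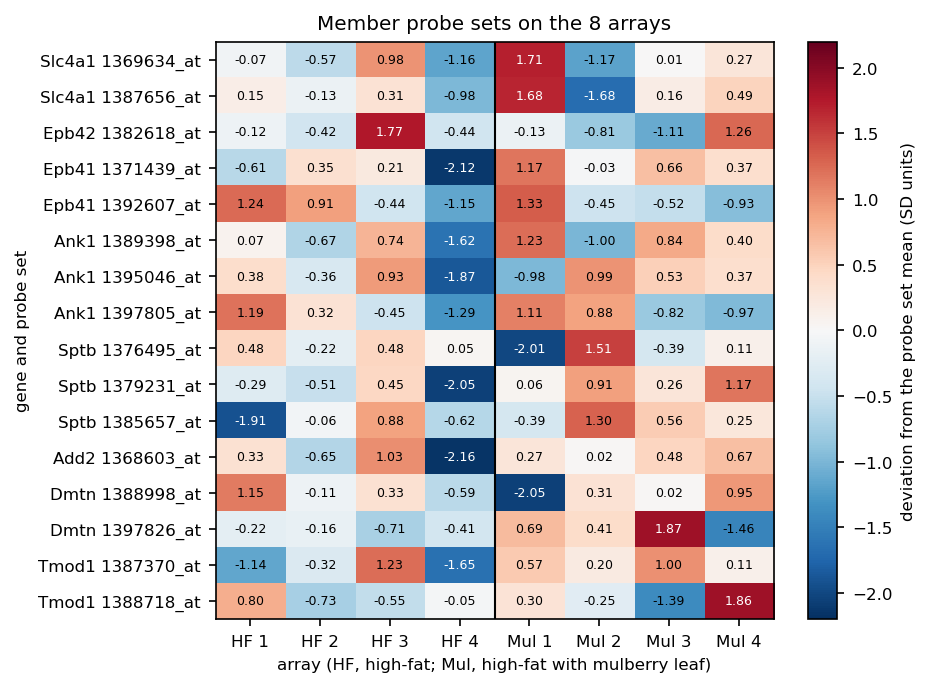
Deviation of each of the 16 member probe sets (rows) from its own mean on the 8 arrays (columns), in SD units, red above and blue below the mean. The column of high-fat replicate 4 is below the mean in 15 of the 16 rows, and no row separates the 4 high-fat from the 4 mulberry arrays.

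Band 3 was measured by a probe set at a level of 11.0 (1387656_at) and another at 8.67 (1369634_at), and both gave nearly the same order of arrays. At 1387656_at the high-fat replicates 1 to 4 stood at 0.15, -0.13, 0.31 and -0.98, and the mulberry replicates 1 to 4 at 1.68, -1.68, 0.16 and 0.49. The mulberry arrays thus held both the highest and the lowest value, and the diets overlapped. At 1369634_at the high-fat arrays stood at -0.07, -0.57, 0.98 and -1.16 and the mulberry arrays at 1.71, -1.17, 0.01 and 0.27. The differences were 0.33 ± 0.71 (SE) and 0.41 ± 0.7 SD units with 4 arrays per diet, and without mulberry replicate 1 they were -0.23 and -0.12. Mulberry replicate 1 was the top array for both probe sets of this transporter.

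Protein 4.2, a catalytically inactive relative of the transglutaminases, had a level of 9.4 at its only probe set. The high-fat arrays stood at -0.12, -0.42, 1.77 and -0.44 and the mulberry arrays at -0.13, -0.81, -1.11 and 1.26. High-fat replicate 3 and mulberry replicate 4 were high, while the other 6 arrays lay below the mean. The difference was -0.39 ± 0.7 (SE), and it turned to 0.17 without high-fat replicate 3. After quantile normalization limma called this probe set lower (adjusted p = 4.29e-15, -1.87 SD units). There the 4 values of a diet were identical, since that step replaces each value by 1 of a shared set; 12 probe sets were called in that setting (0.0387%), 11 of them with no spread within the diets.

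Ankyrin-1 links band 3 to beta-spectrin, and its 3 probe sets had levels of 6.89 (1389398_at), 6.95 (1395046_at) and 6.06 (1397805_at). At 1389398_at the high-fat arrays stood at 0.07, -0.67, 0.74 and -1.62 and the mulberry arrays at 1.23, -1.0, 0.84 and 0.4, a difference of 0.73 ± 0.66 (SE). This order of arrays resembled that of band 3, with mulberry replicate 1 on top. At 1395046_at they stood at 0.38, -0.36, 0.93 and -1.87 and at -0.98, 0.99, 0.53 and 0.37, where mulberry replicate 1 was instead low (0.46 ± 0.77). At 1397805_at the difference was 0.11 ± 0.72, and the values ran from -1.29 to 1.19 within the high-fat arrays alone. High-fat replicate 4 was the lowest array at all 3 ankyrin probe sets, and without it the differences were 0.39, -0.13 and -0.33.

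Beta-spectrin had the largest difference of the members at 1 of its 3 probe sets, all of which lay below the median level of all tested probe sets. At 1379231_at (level 6.41) the high-fat arrays stood at -0.29, -0.51, 0.45 and -2.05 and the mulberry arrays at 0.06, 0.91, 0.26 and 1.17. All 4 mulberry arrays were above the mean, but high-fat replicate 3 lay above 2 of them. The difference was 1.2 ± 0.57 SD units (SE; limma unadjusted p = 0.0758, exact permutation p = 0.0857), and leaving out each array in turn gave 1.06 to 1.46. After quantile normalization it turned to -0.51. At 1385657_at (level 5.91) the high-fat arrays stood at -1.91, -0.06, 0.88 and -0.62 and the mulberry arrays at -0.39, 1.3, 0.56 and 0.25, a difference of 0.86 ± 0.64. At 1376495_at (level 6.56) the order was another: high-fat arrays at 0.48, -0.22, 0.48 and 0.05, mulberry arrays at -2.01, 1.51, -0.39 and 0.11, and a difference of -0.39 ± 0.7. The 2 mulberry arrays numbered 1 and 2 lay at opposite ends there.

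Among the proteins of the junctions, protein 4.1 strengthens the bond between spectrin and actin. Its probe set 1371439_at, with a level of 11.87, showed high-fat arrays at -0.61, 0.35, 0.21 and -2.12 and mulberry arrays at 1.17, -0.03, 0.66 and 0.37. High-fat replicate 4 was far below the rest, high-fat replicate 1 was also below all mulberry arrays, and the other 2 high-fat arrays lay among them. The difference was 1.09 ± 0.58 (SE, limma unadjusted p = 0.107), 1.01 without high-fat replicate 4 and 0 after quantile normalization. It was 0.24 when the mean of 18 hybridization controls was a covariate. The other probe set, 1392607_at (level 7.59), differed by -0.28 ± 0.78, with high-fat arrays from -1.15 to 1.24 and mulberry arrays from -0.93 to 1.33.

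Beta-adducin caps the fast-growing ends of the short actin filaments and recruits spectrin to them. Its single probe set, at a level of 9.27, had high-fat arrays at 0.33, -0.65, 1.03 and -2.16 and mulberry arrays at 0.27, 0.02, 0.48 and 0.67. The mulberry arrays lay within 0.65 SD units of each other, whereas the high-fat arrays held both the highest and the lowest value. The difference was 0.72 ± 0.66 (SE), and 0.23 without high-fat replicate 4.

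Tropomodulin-1 caps the slow-growing ends of the same filaments. Its probe set 1387370_at (level 7.99) had high-fat arrays at -1.14, -0.32, 1.23 and -1.65 and mulberry arrays at 0.57, 0.2, 1.0 and 0.11, a difference of 0.94 ± 0.62 (SE). All mulberry arrays were above the mean, and high-fat replicate 3 was above them all; without that array the difference was 1.61 (unadjusted p = 0.00733, smallest adjusted p of any member in that fit 0.686). At 1388718_at (level 8.63) the high-fat arrays stood at 0.8, -0.73, -0.55 and -0.05 and the mulberry arrays at 0.3, -0.25, -1.39 and 1.86, and the difference was 0.26 ± 0.71. It was -0.44 without mulberry replicate 4.

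Dematin bundles actin filaments and ties the junctions to the membrane. At 1388998_at (level 7.26) the high-fat arrays stood at 1.15, -0.11, 0.33 and -0.59 and the mulberry arrays at -2.05, 0.31, 0.02 and 0.95, so that a single mulberry array held the low end (-0.39 ± 0.7, SE; 0.38 without mulberry replicate 1). At 1397826_at (level 6.44) the high-fat arrays were close together, from -0.71 to -0.16, and the mulberry arrays stood at 0.69, 0.41, 1.87 and -1.46. The difference was 0.75 ± 0.67, with 3 mulberry arrays above and 1 below all high-fat arrays. It was 0.36 without mulberry replicate 3, 1.56 without mulberry replicate 4 and 1.49 without both arrays numbered 4 (limma unadjusted p = 0.0371, adjusted p = 1.0, a choice made after the values were seen).

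**Figure D2:**
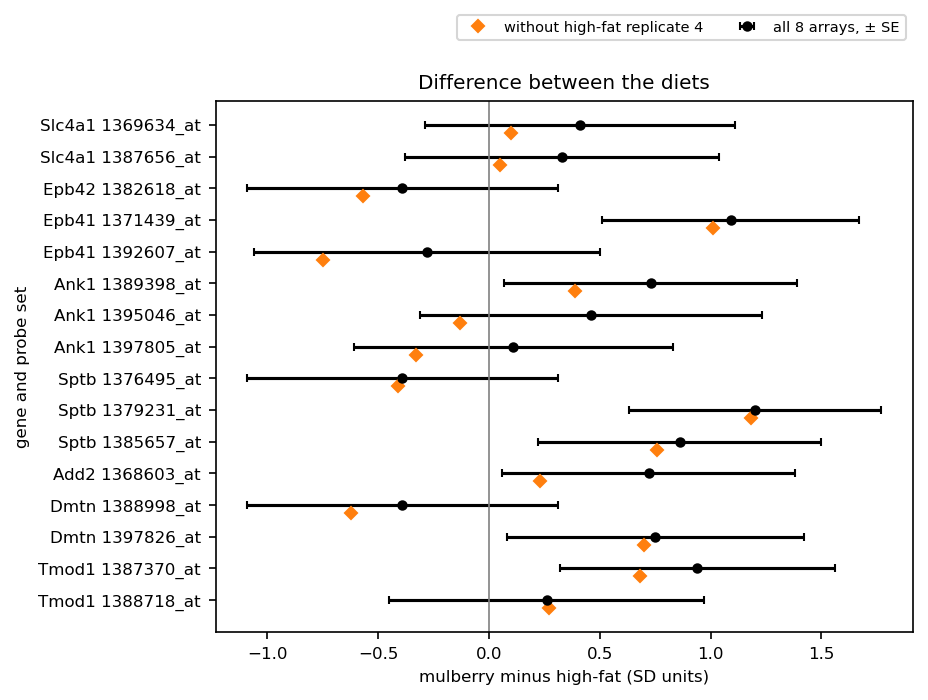
Mulberry minus high-fat difference of each member probe set in SD units (black points, bars ± SE from limma, 4 arrays per diet) and the same without high-fat replicate 4 (orange diamonds). The Sptb probe set 1379231_at is farthest to the right at 1.2, and without that array 10 of the 16 diamonds lie above 0.

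The higher mulberry means leaned on high-fat replicate 4. It was the lowest array for 8 of the 16 member probe sets and below the mean for 15, whereas over all tested probe sets it was the lowest for 16.7% and below the mean for 55.4%. Its median deviation over the members was -1.15, against -0.27 to 0.46 for the other 7 arrays and -0.17 over all probe sets on the same array. Without it 10 members were higher and 6 lower, with a median difference of 0.16, beside 52.2% higher over all probe sets. Without both arrays numbered 4, a choice made after the values were seen, 9 were higher and 7 lower (53.1% higher over all), and the median was 0.04. Of 6 lists of markers of other blood cells, 3 were at the end of their range on high-fat replicate 4 and 3 were not. The mean of 10 measured natural killer cell genes (of 11) was 2.15 there, against -0.34 to -0.01 in the other high-fat and -0.55 to -0.16 in the mulberry arrays. The mean of 14 monocyte genes (of 14) was 1.47, against -0.7 to 0.44 on the other arrays, and that of 17 platelet genes (of 22) was -1.17, against -0.33 to 1.51. The 10 neutrophil genes (of 17) averaged 0.27 there, against -1.46 to 0.75 on the other arrays, the 15 T cell genes (of 16) -0.31, against -0.62 to 0.98, and the 9 B cell genes (of 12) -0.15, against -0.94 to 1.39. The reticulocyte and heme list, 25 measured genes of 33 with no member among them, stood at -0.52 on this array, within a range of -0.52 to 0.78 in the high-fat and -0.64 to 0.49 in the mulberry arrays. The part of these cells in the result was not tested. With the reticulocyte and heme score as a covariate, 12 members had higher estimates, beside 52.4% of all probe sets, with a median of 0.55.

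Probe sets of the same gene mostly did not follow each other from array to array. Over the 8 arrays the Pearson correlation was 0.92 between the 2 Slc4a1 probe sets, and 0.91 without high-fat replicate 4. It was 0.4 for Epb41 (0.0 without that array), -0.41 for Dmtn and -0.33 for Tmod1. The 3 Ank1 pairs lay between 0.15 and 0.34, and the 3 Sptb pairs between 0.19 and 0.55. In all, the 10 pairs within a gene had a median of 0.24, beside 0.21 for the 110 pairs between genes. Without high-fat replicate 4 these medians were -0.15 and 0.06, and the Ank1 pairs stood at -0.31, -0.36 and -0.3. For Epb41, Sptb and Dmtn, probe sets of the same gene had means on opposite sides between the diets. These correlations rest on 8 arrays that all probe sets share.

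**Figure D3:**
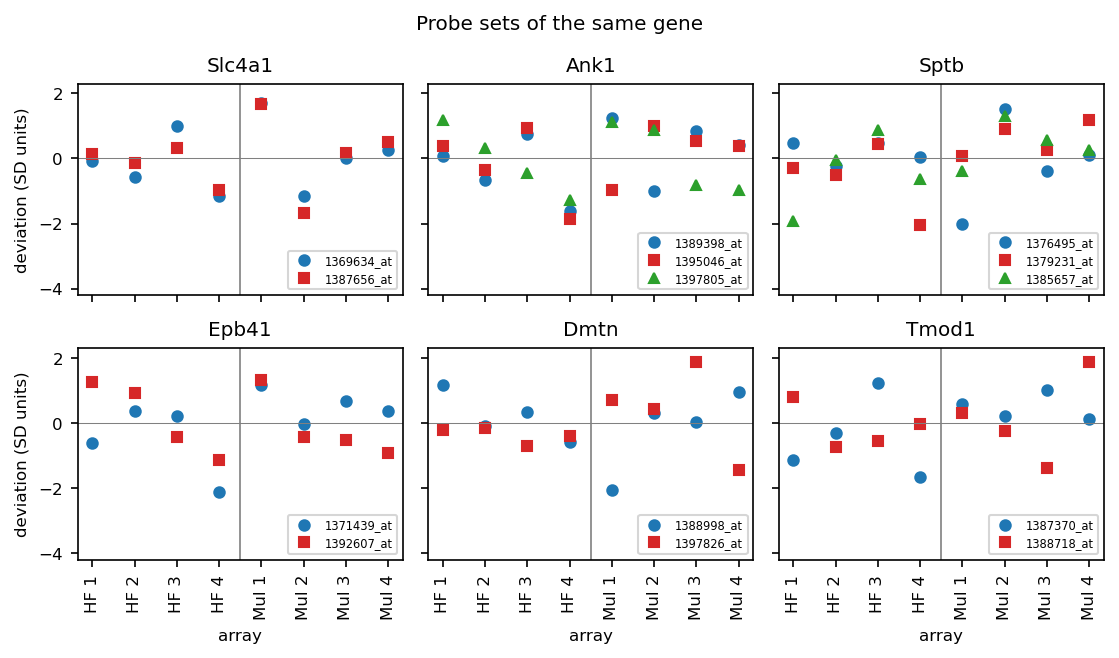
Deviation in SD units on each array for the 6 members with more than 1 probe set, a colour and symbol per probe set; the vertical line separates high-fat (HF) from mulberry (Mul) arrays. The symbols nearly coincide for Slc4a1, and lie apart on several arrays for Dmtn and Tmod1.

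The 110 pairs of probe sets from different genes had a median correlation of 0.21. Of these pairs, 15 had a correlation above 0.7 and 6 below the less strict cutoff of -0.5. The same counts over pairs of all probe sets are not given here, so these numbers only describe the members. The highest was 0.91 between Slc4a1 1369634_at and Ank1 1389398_at (0.92 within the diets, 0.9 without high-fat replicate 4). Mulberry replicate 1 was the highest array for both of these probe sets. Add2 correlated with Sptb 1379231_at at 0.86 and with Tmod1 1387370_at at 0.76, but these were 0.52 and 0.51 without high-fat replicate 4. Epb41 1371439_at and Add2 had 0.75 over all arrays and 0.01 without it. Sptb 1376495_at ran opposite to Slc4a1 1387656_at (-0.82, and -0.88 without that array) and together with Dmtn 1388998_at (0.77 and 0.8). Both of the latter were lowest on mulberry replicate 1, where the Slc4a1 probe sets were highest. Without high-fat replicate 4, 7 of the 110 pairs were above 0.7 and 16 below -0.5, with a median of 0.06. Epb41 1371439_at and Dmtn 1388998_at went from -0.21 over all arrays to -0.83 without it, and Epb41 1392607_at and Sptb 1379231_at from -0.03 to -0.83.

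**Figure D4:**
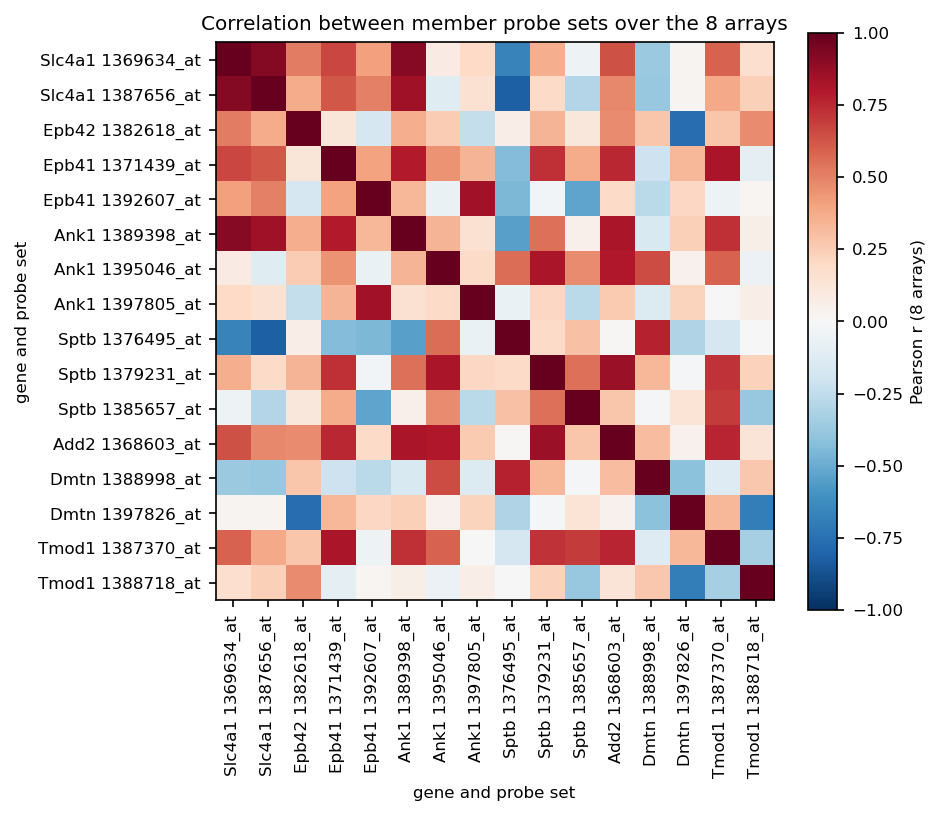
Pearson correlation over the 8 arrays between each pair of the 16 member probe sets, red positive and blue negative. A red block joins Slc4a1 with Ank1 1389398_at (0.91 and 0.85), and a blue field sets Sptb 1376495_at against Slc4a1 (-0.67 and -0.82).

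On the deposited scale the members varied more between arrays than most probe sets. The SD was above the 90th percentile of all tested probe sets for 8 of the 16, which 10.0% of all are by definition, and below the 50th for 4. Of the 11 members at or above the median level, 7 were above that percentile, against 16.0% of all 15521 such probe sets. The members below the median level were all Sptb probe sets, Ank1 1397805_at and Dmtn 1397826_at. The SDs ran from 2.06e-06 for Epb41 1392607_at to 0.000286 for Add2. Several blood lists had a high share as well: 14 of 25 reticulocyte and heme genes, 13 of 25 membrane partners, 15 of 17 platelet, 9 of 10 natural killer cell, 7 of 9 B cell, 10 of 14 monocyte and 6 of 10 neutrophil genes were above the 90th percentile. The share was lower for the T cell genes (3 of 15, 20.0%) and the relatives of the members (4 of 25, 16.0%). The list of relatives shares Add1, Add3 and Tmod3 with the membrane partners. It was 10.0% for all probe sets and 16.0% for those at or above the median level. The degree of compression may differ between probe sets, so these SDs describe the deposited table.

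A list of 32 other proteins of the red cell membrane and its skeleton, with 1 probe set per gene, had 25 genes with a probe set naming that gene alone; the rest of the list was not analysed here. Of the 25, 0 passed in limma, 0 had an unadjusted p under 0.05 (4.15% of all 14217 genes), 8 had higher and 17 lower means, and the median difference was -0.64 SD units. Over all genes 49.1% were higher and the median was -0.02. Without high-fat replicate 4, 6 partners were higher and 19 lower, with a median of -0.42 (49.8% higher over all genes). With the hybridization controls as a covariate 11 were higher and 14 lower, with a median of -0.19 (47.5%). Other scalings move all genes: 6 partners were higher, 6 lower and 13 at 0 after quantile normalization, where 32.7% of all genes were higher, and 16 were higher after median centring, with a median of 1.0, against 95.7% and 1.15 over all genes. The members taken in the same way, 1 probe set per gene, had 5 of 8 higher and a median of 0.29, and without high-fat replicate 4 they had 4 of 8 and -0.04. The largest differences among partners were those of Flot2 and Flot1, which organise membrane microdomains (-1.14 ± 0.57 and -1.09 ± 0.58, SE), and of Add1, the alpha-adducin that pairs with the beta chain (-1.13 ± 0.58). Capza1, a subunit of the actin-capping protein CapZ, had -0.98 ± 0.61. Stom, the membrane protein stomatin, and Xk, a carrier of the Kx blood group antigen, had higher means (1.04 ± 0.6 and 0.98 ± 0.62). After quantile normalization Add1 stood at 0.71 and Flot1 at 0.48, and the differences of Flot2, Capza1, Stom and Xk were 0; after median centring Add1 stood at 1.0 and Flot2 at 1.04, below the median of all genes there. The adducin chains, which form a heterotetramer, thus had means on opposite sides, 0.72 for beta and -1.13 for alpha, each overlapping between the diets, although Add1 was on the higher side after quantile normalization; the difference between the chains was not tested.

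Of 26 relatives of the members, most of them listed for other cells, such as the spectrins, ankyrins and tropomodulins of non-erythroid tissues, 25 were measured. In limma 0 passed, 16 were higher and 9 lower (12 and 13 without high-fat replicate 4), and the median was 0.07. Add1, Add3 and Tmod3 are on both this list and that of the membrane partners. Avil, the villin relative advillin that shares a headpiece domain with dematin, had high-fat arrays at -1.23, -0.99, -1.01 and 0.11 and mulberry arrays at 1.55, 0.27, 0.92 and 0.38. All its mulberry arrays lay above all high-fat arrays, as the diets of 2.41% of all genes did not overlap, and its difference was 1.56 ± 0.44 (SE, unadjusted p = 0.0101, adjusted p = 1.0, 0 after quantile normalization). Tmod4, the tropomodulin of skeletal muscle, was at -1.52 ± 1.71 (unadjusted p = 0.406), -0.75 after quantile normalization and, after median centring, at 1.16, beside the median of 1.15 over all genes. Its highest mulberry array, at 0.39, was under its lowest high-fat array, at 0.48. The SD of this probe set over the 8 arrays was only 4.03e-07, against a median of 5.31e-06 over all probe sets. The reticulocyte and heme list, which shares Rhag with the membrane partners, had 11 higher and 14 lower means of 25 and a median of -0.05; without high-fat replicate 4 it had 8 higher, 17 lower and a median of -0.55, and after median centring 17 were higher with a median of 0.68, against 95.7% and 1.15 over all genes.

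**Figure D5:**
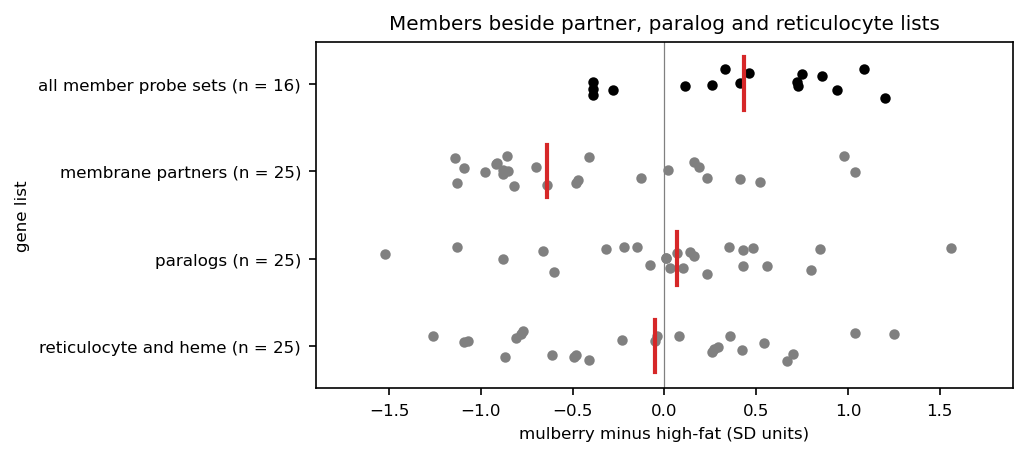
Mulberry minus high-fat difference in SD units for all 16 member probe sets and for 1 probe set per gene of the membrane partners, the paralogs and the reticulocyte and heme genes (n = 25 each); a red bar marks the median of each list. The medians are 0.43, -0.64, 0.07 and -0.05, and every list has genes on both sides of 0.

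The genes whose pattern over the 8 arrays was most like the mean of the members (1 probe set per gene, each scaled to unit SD) were ranked by Pearson correlation among 14209 other genes. That mean stood at 0.32, -0.28, 0.56 and -1.02 in the high-fat and at -0.22, 0.01, -0.13 and 0.76 in the mulberry arrays. The closest were Uba7, the activating enzyme of the ubiquitin-like protein ISG15 (0.96), Ifrd2 (0.95), Jazf1 (0.94), Rhoxl (0.94), Gp9, a platelet glycoprotein (0.93), Unc80 (0.93), Afp (0.93) and Ypel5 (0.92). Without high-fat replicate 4 these were between 0.84 and 0.94. In all 19 genes exceeded 0.9, and the median over all genes was -0.01. How many of 14209 unrelated genes would exceed 0.9 over 8 arrays was not estimated. Unc80, Rhoxl and Afp had levels of 6.41, 6.16 and 5.98, below every array median (6.56723 to 6.56732). None of the 8 is on the list of membrane partners, and over 8 arrays such a ranking is a description only.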

How the data were processed

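Total RNA from whole blood, lysed and isolated with TRIzol LS and purified on RNeasy columns, was labelled from 200 ng with the GeneChip 3' IVT Express kit and hybridised to an Affymetrix rat array, per the labels. The authors deposited log2 values per probe set; the log2 scale was read from the range of the values, and how they were summarised, background-corrected and normalized is not given in the sources used here. No further normalization was applied.

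Of 31099 probe sets, 57 manufacturer controls were left out. Annotation of the platform named 1 gene for 20826 probe sets, several for 436 and none for 9780; 20758 of the first kind, all 16 members among them, matched RefSeq by gene number, which updated symbols. Each probe set was fitted in limma 3.58.1 (R 4.3.3; lmFit, eBayes, two-sided, no covariate) over all 31042, with Benjamini-Hochberg adjustment at 0.05. The fit was tested on simulated data with shifts larger than any member difference. That test therefore does not show whether differences of the size reported here would be called. Exact permutation tests (scipy 1.17.1) enumerated 70 assignments. Detection calls were not used, and 4 arrays per diet set the limit of precision.

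The members and lists were chosen with earlier results of these data known. Named genes were all members, the 6 partners and 3 paralogs of largest difference, the 8 genes most like the members, and Hbb and Alas2; other genes of this rule are not reported here. Of the marker lists of other blood cells, 15 of 17 platelet, 8 of 10 neutrophil and 9 of 15 T cell genes had higher means with mulberry. So had 4 of 14 monocyte, 0 of 9 B cell and 0 of 10 natural killer cell genes, beside 49.1% of all genes. Without high-fat replicate 4, 12 platelet, 9 neutrophil, 8 T cell, 8 monocyte, 1 B cell and 2 natural killer cell genes were higher (49.8% of all genes). In the same order, 15, 9, 3, 8, 1 and 1 were higher with the hybridization controls as a covariate (47.5%). After quantile normalization 8, 2, 6, 1, 1 and 0 were higher (32.7%), and after median centring 16, 10, 15, 7, 3 and 1 (95.7%). These lists were not tested as sets. Alternatives were quantile normalization, median centring, only brighter probe sets, a replicate block, each array left out, 2 covariates, another variance model and 1 probe set per gene.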

Additional observations from a re-analysis of the deposited data

Results flagged for a closer look

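In Epb42, high-fat replicate 3 stood at 1.77 SD units, apart from the other 3 high-fat arrays, which lay between -0.44 and -0.12. The gap was 0.854 of the range of the 4 arrays, above Dixon's limit for 4 values. It was the only such array among the 32 groups of 4 examined (16 member probe sets in 2 diets), where chance flags about 1 in 20 groups.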

How the results depend on the processing

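In all alternatives but quantile normalization, limma called 0 members and 0 probe sets of the whole table. Quantile normalization called 12 probe sets and 1 member (Epb42, -1.87); 7 members had higher means, Ank1 1397805_at turned to -0.71, Sptb 1379231_at to -0.51 and Dmtn 1397826_at to -0.72, and 4 members had a difference of 0. There 28.1% of all probe sets had higher means. Median centring moved the median difference of all probe sets to 1.15 and of the members to 1.07 (96.9% and 15 of 16 higher). It turned Epb41 1392607_at to 1.16, Sptb 1376495_at to 0.45 and Dmtn 1388998_at to 0.54. The array medians ran from 6.56723 to 6.56732, a wide span beside the median SD of 5.31e-06 over all tested probe sets. The 18 hybridization controls averaged -0.56 ± 0.86 in the high-fat and 0.56 ± 0.63 in the mulberry arrays (SD, n = 4 each, SD units). With their mean as a covariate, Slc4a1 1369634_at turned to -0.04, Ank1 1397805_at to -0.39, Sptb 1376495_at to 0.21 and Dmtn 1388998_at to 0.57. Tmod1 1387370_at went from 0.94 to 0.19, Sptb 1385657_at from 0.86 to 0.22 and Dmtn 1397826_at from 0.75 to 0.25. Tmod1 1388718_at went up from 0.26 to 1.18, and Epb41 1392607_at went down from -0.28 to -0.92. The median of the members went from 0.43 to 0.23, and the cause was not tested. Without both arrays numbered 4, an alternative chosen after seeing the data, Slc4a1 1387656_at was -0.05, Ank1 1395046_at -0.18 and Tmod1 1388718_at -0.37. Leaving out each array in turn gave 10 to 13 higher members, a median difference of 0.16 to 0.72 and 0 calls, and 7 of the 16 probe sets kept their sign throughout. The ranges of those that turned were -0.12 to 0.91 and -0.23 to 1.19 (Slc4a1 1369634_at and 1387656_at), -0.94 to 0.17 (Epb42), -0.85 to 0.09 (Epb41 1392607_at), -0.13 to 0.87 and -0.33 to 0.55 (Ank1 1395046_at and 1397805_at), -1.12 to 0.34 (Sptb 1376495_at), -0.77 to 0.38 (Dmtn 1388998_at) and -0.44 to 0.86 (Tmod1 1388718_at). With the replicate number as a block, the differences were the same by construction (12 of 16 higher, median 0.43) and 0 were called. Deviations of same-numbered arrays correlated at -0.05, -0.05, 0.25 and 0.16, and those of differently numbered arrays of the 2 diets at -0.2 to 0.15. Whether same-numbered samples share more than a number was not tested. The restriction to brighter probe sets, another variance model and 1 probe set per gene also leave each estimate the same by construction, so they could turn no member. The reticulocyte score as a covariate turned no member. Its mean differed little between the diets (0.06 in the high-fat and -0.06 in the mulberry arrays).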
